A study of Mus musculus with 6 samples.

Results

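The genes described here encode the core of the 2 complexes of the kinase mTOR together with their closest regulators and targets, 10 genes taken by name (Mtor, Rptor, Rictor, Mlst8, Rheb, Tsc1, Tsc2, Rps6kb1, Eif4ebp1 and Akt1s1) from the 39527 genes of the authors' deposited table. All 10 had a row and an adjusted p-value. The samples were group 2 innate lymphoid cells (ILC2s), tissue lymphocytes that answer epithelial alarmins with type 2 cytokines, sorted from mouse lung after 4 days of IL-33 challenge. The labels give 3 samples from R5/+ mice (WT) and 3 from mice that carry R5/+ together with LKB1f/f (KO). Both groups therefore carry the R5 allele and received IL-33, and the labels give no age, spell out no R5 and name no Cre driver. Each sample pooled 3 to 4 mice. The only values used were the authors' comparison of the genotypes, which holds 1 fold change and 1 standard error (SE) per gene, so that the spread between single samples cannot be shown and sample depths were not used. The labels do not say whether the pools of a group were separate experiments, so that the p-values measure only the spread in the authors' fit, which may be technical.

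mTOR is a serine/threonine kinase that works in a growth-promoting complex, mTORC1, defined by Raptor (Rptor), and in a second complex, mTORC2, defined by Rictor. At the lysosome, amino acids bring mTORC1 to the GTPase Rheb, which switches it on, while the TSC1-TSC2 complex acts on Rheb to switch it off. LKB1, encoded by Stk11, activates the energy sensor AMPK, which restrains mTORC1 by phosphorylating TSC2 and Raptor. In activated lymphocytes mTORC1 drives protein synthesis and growth, and its control lies largely in phosphorylation and localization, which transcript levels do not show.

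Neither the labels nor the column names state which genotype is the numerator, so every fold change is given with the sign it has in the authors' deposited table and called positive or negative. As the anchor for that sign, the authors' deposited table lists the floxed gene Stk11 (ENSMUSG00000003068) at a log2 fold change of -1.34 ± 0.30 (SE), adjusted p = 0.000102557. Its mean was 652.3 normalized counts, over all exons and not the floxed part alone. A called gene is one with an adjusted p below 0.05 in the authors' deposited table. Of 11 ILC2 markers, all were tested, with means from 618.6 to 44552 normalized counts, 2 called positive (Gata3 and Icos) and 2 negative (Klrg1 and Il13). Of all tested genes, 24.5% were called, 11% positive and 13.5% negative, and no share for genes as abundant as these markers was computed. Markers of other cells were also measured, with means of 7594 for Sftpc and 4469 for Lyz2. Per kb of annotated exon, which allows genes to be compared, Sftpc had 7344 counts, Scgb1a1 7654 and Lyz2 3396. The median of the ILC2 markers was 3605 per kb, below Sftpc and Scgb1a1. The highest median of another marker group was 401.1 per kb, that of epithelial and endothelial markers. T cell markers spanned means of 6.52 to 1605 normalized counts and B and plasma cell markers 76.3 to 939.2. Macrophage markers spanned 15.8 to 4469, and epithelial and endothelial markers 54.8 to 7594. The called ones among them were 1 T cell marker (Cd3g) and 2 B and plasma cell markers (Cd79b and Jchain), all negative. Sftpc had -1.18 ± 0.84 (SE) and Lyz2 -0.75 ± 0.80 in the authors' deposited table, neither called. Scgb1a1, at -3.15, had a larger SE than both and no p-value. All B and plasma cell and macrophage markers were below 0, as were the epithelial and endothelial ones except Epcam (0.38). T cell markers were below 0 except Cd3e (0.08) and Cd4 (0.37). NK cell markers (Ncr1, Eomes and Klrb1c) were all above 0, with means of 8.33 to 12.4 normalized counts. The part of such cells in the values below was not tested, and in bulk RNA fewer cells of a type and less RNA per cell cannot be told apart.

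Of the 10 mTOR complex genes, 2 were called, Rptor and Tsc2, both positive, and 0 were called negative. This is 20% of the genes, against 24.5% of all 14961 tested genes, 11% called positive and 13.5% called negative. Among the 6709 tested genes whose means lie within the range of these 10, 33.2% were called, so that the share of called genes was not above the background. At an unadjusted p below 0.05 in the authors' deposited table, Mlst8 was added on the negative side. In 8 of the 10 genes the deposited value lay above 0 and in 2 below, with a median of 0.16 against -0.01 over all tested genes. In 7 of the 10 the 95% interval held 0.

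Of the 2 genes that define the complexes, Rptor was called and Rictor was not, and for this reason the sequences just upstream of their annotated starts are shown, 250 bases each from RefSeq (GRCm38.p6, the mm10 assembly). They lie at chr11:119602655-119602904 and chr15:6708131-6708380, both on the plus strand. Capitals mark the GC box GGGCGG on either strand, a common element of promoters, and the E-box CACGTG and the cAMP response element TGACGTCA were searched in the same way.
Rptor upstream: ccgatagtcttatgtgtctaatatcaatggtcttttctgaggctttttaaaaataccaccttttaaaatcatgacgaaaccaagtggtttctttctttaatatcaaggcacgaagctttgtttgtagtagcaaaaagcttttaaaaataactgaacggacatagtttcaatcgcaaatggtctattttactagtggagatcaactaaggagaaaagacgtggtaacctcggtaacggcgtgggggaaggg
Rictor upstream: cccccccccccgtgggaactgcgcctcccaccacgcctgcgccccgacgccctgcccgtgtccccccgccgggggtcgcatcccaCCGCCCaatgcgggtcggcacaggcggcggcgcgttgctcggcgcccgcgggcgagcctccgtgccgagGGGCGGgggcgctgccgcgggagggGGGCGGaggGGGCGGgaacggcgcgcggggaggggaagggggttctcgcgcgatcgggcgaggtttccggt
The Rptor window has 37.6% G and C and none of the 3 motifs, and its G and C content is higher than that of only 7.92% of the 32851 such windows in the table. The Rictor window has 81.2% G and C, above 99.1% of all windows, and 4 GC boxes. A GC box stands in 32.7% of all such windows, an E-box in 6.02% and a cAMP response element in 1.55%. The absence of a motif says only that its letters are not in this window. Tsc2, also called, had none of the 3 motifs in the 126 bases kept of its window, at 66.7% G and C. Of the uncalled genes, Mlst8 (57.6% G and C), Tsc1 (53.9%, 245 bases kept) and Rps6kb1 (60.1%, 183 bases kept) also had none. Mtor (54.4%) and Akt1s1 (72%, 75 bases kept) had 2 GC boxes each. Any relation of these sequences to the fold changes was not tested. The table lists such windows for 9 of the 10 genes, without Eif4ebp1, and for 8 of them some or all of the bases lie outside annotated untranslated exons.

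All 10 genes were expressed. Counts grow with transcript length, so levels were compared as mean normalized counts per kb of annotated exon. The means are over the libraries of the authors' fit and not split by genotype. Rheb had the highest level at 323.8 per kb. Tsc2 followed at 195.9 and Eif4ebp1, which encodes the translation repressor 4E-BP1, at 191.2. Rps6kb1, the gene of S6 kinase 1, had 142.3 and Rictor 120.8 counts per kb. Mtor itself (87.1) and Rptor (83.3) stood just above the median of tested protein-coding genes, 80.6 counts per kb. Akt1s1 (68.7), Tsc1 (67.0) and Mlst8 (60.8) stood below it. The highest level was thus 5.32 times the lowest, and Rheb was above 79.2% of tested protein-coding genes. The exon length is that of all annotated transcripts merged, from 2 transcripts for Eif4ebp1 to 22 for Tsc2, so that the level of genes with many transcripts is set low. No spread over samples is given for the means, and whether neighbours in this order differ was not tested.

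**Figure D1:**
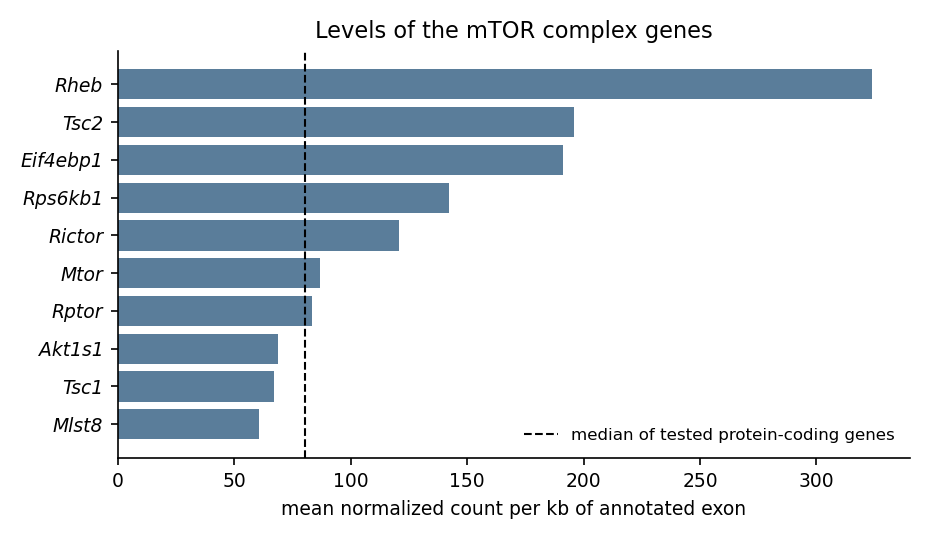
Bars give the mean normalized count per kb of annotated exon for each gene, over the libraries of the authors' fit, with the dashed line at the median of tested protein-coding genes (80.6). Rheb reaches 323.8 and Mlst8 60.8, and 7 of the 10 genes lie above the line.

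Among the subunits of mTORC1, Rptor stood apart. Rptor (ENSMUSG00000025583, mm10 chromosome 11, 119602905 to 119899576, plus strand), the scaffold that presents substrates to the kinase, stood at 0.98 ± 0.15 (SE) on the log2 scale in the authors' deposited table. Its adjusted p there was 1.22e-08, at a mean of 1122 normalized counts. The value corresponds to a 1.97-fold difference with a 95% interval of 1.60 to 2.43, and its size exceeded that of 86% of tested genes. Its sign is opposite to that of Stk11. An antisense gene, Rptoros, shares 84 exonic bases with Rptor (0.62% of its exon length) and had a mean of only 11.8 normalized counts, 0.02 ± 0.79 (SE) in the authors' deposited table.

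The catalytic subunit Mtor (ENSMUSG00000028991, chromosome 4, 148448611 to 148557683), shared by both complexes, was not called at 0.20 ± 0.17 (SE) in the authors' deposited table, adjusted p = 0.423. Its interval, -0.13 to 0.52, still allows a 1.44-fold difference on the positive side. Mlst8 (ENSMUSG00000024142, chromosome 17, 24473551 to 24479078), the small WD-repeat subunit also shared by both, had the only negative value beside Eif4ebp1, -0.45 ± 0.21 (SE) in the authors' deposited table. It was not called in the authors' deposited table (adjusted p = 0.103), although its 95% interval, -0.87 to -0.04, did not reach 0. Bricd5, on the opposite strand, shares 997 bases or 22.5% of the exon length of Mlst8 and was not analysed here, so that reads of both may be in this value, since no source used here gives the handling of strand. Akt1s1 (ENSMUSG00000011096, chromosome 7, 44848991 to 44855421) encodes PRAS40, an inhibitory subunit of mTORC1 and a substrate of Akt. The authors' deposited table gives it 0.06 ± 0.22 (SE), adjusted p = 0.889, with an interval of -0.38 to 0.50, at 211.2 normalized counts the lowest mean of the 10.

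Rictor (ENSMUSG00000050310, chromosome 15, 6708379 to 6800401), the scaffold of mTORC2, had 0.12 ± 0.15 (SE) in the authors' deposited table, adjusted p = 0.635. Its interval, -0.18 to 0.42, does not overlap that of Rptor, 0.68 to 1.28. Both genes were measured in the same libraries at similar SEs, and the difference between them was not tested, since it needs the values of single samples.

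The TSC genes and Rheb, the switch upstream of mTORC1, all had values above 0. Tsc2 (ENSMUSG00000002496, chromosome 17, 24595816 to 24632630, minus strand), which encodes the subunit with the GTPase-activating domain, was called at 0.50 ± 0.14 (SE) in the authors' deposited table. Its adjusted p was 0.002912289, and the value corresponds to a 1.42-fold difference with a 95% interval of 1.17 to 1.71. Its end overlaps that of Pkd1 on the other strand by 693 exonic bases, 7.2% of the exon length of Tsc2, and Pkd1 had 0.38 ± 0.21 (SE) in the authors' deposited table, adjusted p = 0.180. The DNA repair gene Nthl1 starts 50 bases from Tsc2 in the opposite direction and had -0.09 ± 0.65 (SE) in the authors' deposited table, at a mean of 25.4 normalized counts. Mlst8 lies 116.7 kb from Tsc2 on the same chromosome, with a value of the other sign. Tsc1 (ENSMUSG00000026812, chromosome 2, 28641228 to 28691167), the partner that stabilizes the Tsc2 protein, was not called at 0.27 ± 0.16 (SE) in the authors' deposited table, adjusted p = 0.230. Rheb (ENSMUSG00000028945, chromosome 5, 24802823 to 24842624) had 0.23 ± 0.18 (SE) in the authors' deposited table, adjusted p = 0.402. The intervals of Tsc1, -0.05 to 0.59, and of Rheb, -0.13 to 0.59, both allow a 1.5-fold difference on the positive side.

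The 2 classical substrates were not called. Rps6kb1 (ENSMUSG00000020516, chromosome 11, 86498871 to 86544805) had 0.01 ± 0.14 (SE) in the authors' deposited table, the value nearest to 0 and the smallest SE of the 10. Its interval, -0.26 to 0.28, holds differences of up to 1.21-fold. Eif4ebp1 (ENSMUSG00000031490, chromosome 8, 27260329 to 27276674) had -0.18 ± 0.14 (SE) in the authors' deposited table, adjusted p = 0.388, with an interval of -0.46 to 0.10. The SEs of the 10 genes ran from 0.14 to 0.22, all below the median of 0.23 over tested genes.

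**Figure D2:**
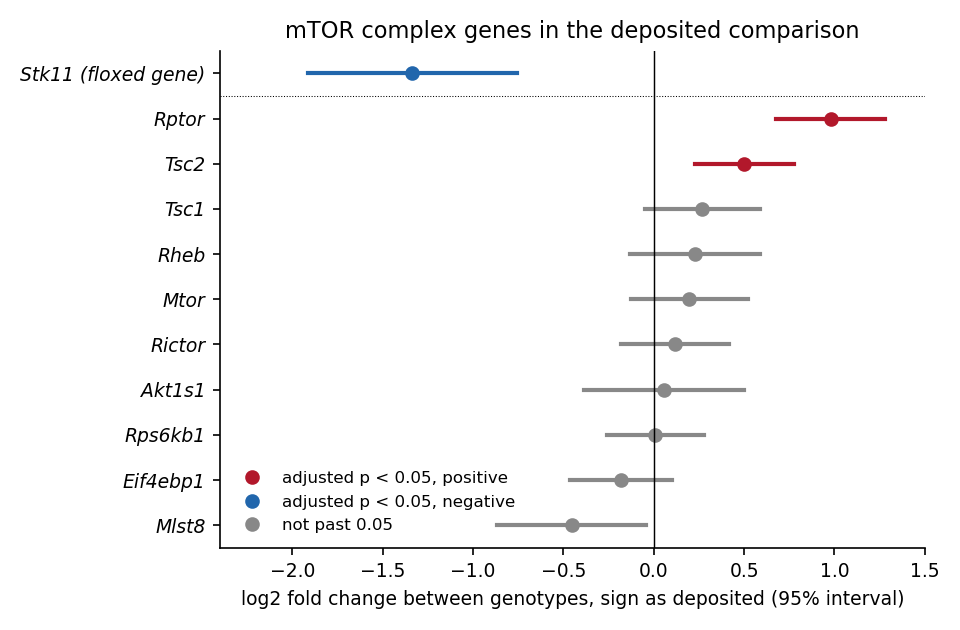
Points give the deposited log2 fold change and lines its 95% interval, for the 10 genes in order of value and for Stk11 above the dotted line. Rptor (0.98) and Tsc2 (0.50) lie to the right of 0 and are coloured as called, while Stk11 (-1.34) lies to the left.

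Exon length moved with these values. Over 13036 tested protein-coding genes the deposited fold change was higher in genes with longer exons in all (Spearman rho across genes 0.26, a description, since genes are not independent replicates). The 3 shortest of the 10 genes, Eif4ebp1 (2196 bases), Akt1s1 (3072) and Mlst8 (4435), include both negative values. Rptor (13471 bases) and Rictor (16930) are the longest. The trend with length alone stood at 0.22 for a gene as long as Rptor, 0.27 for Rictor, 0.13 for Tsc2 and -0.20 for Eif4ebp1. The trends on length and GC content were then removed, and p-values taken from the SEs of the authors' deposited table. Rptor kept a log2 fold change of 0.70 with an adjusted p of 9.8e-05. Tsc2 was then at 0.34 with an adjusted p of 0.0651 and no longer called, and Mlst8 was at -0.45 as before with an adjusted p of 0.109. The median of the 10 genes was 0.06 after this step. The cause of the trend was not tested.

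**Figure D3:**
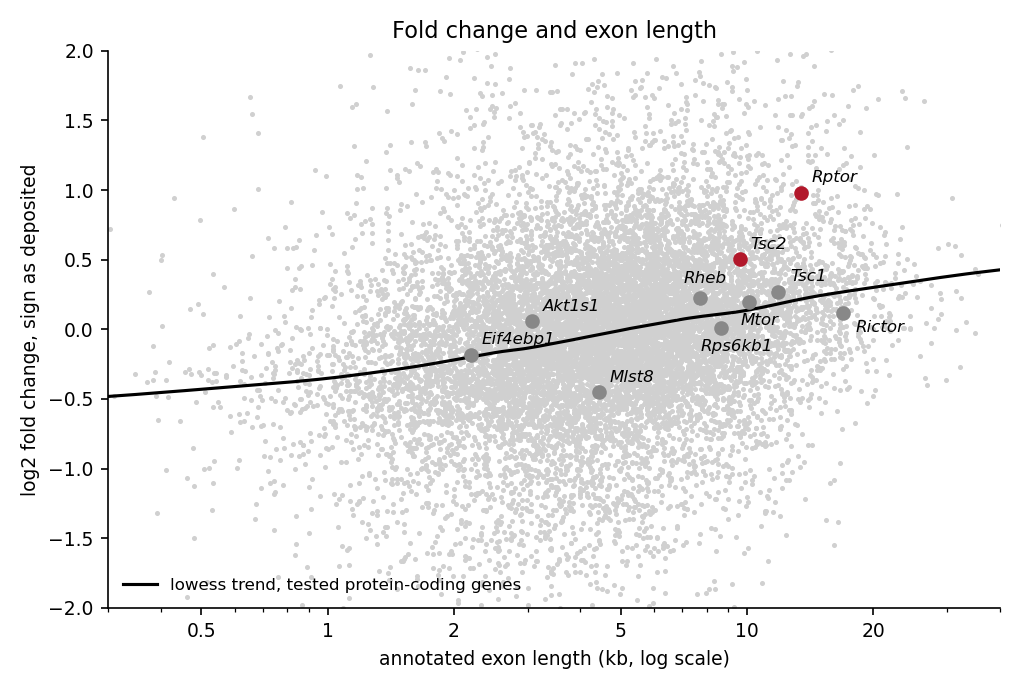
Each grey point is a tested protein-coding gene, with annotated exon length in kb on a log axis and the deposited log2 fold change on the other, and the line is the lowess trend. Coloured points are called and dark grey ones uncalled mTOR complex genes, with Rptor (0.98) far above the line and Eif4ebp1 (-0.18) on it, and 209 of 13036 genes lie outside the axes.

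The other genes of the pathway were taken from lists by role, 83 genes beside the 10, of which 81 were tested. Of these, 8 were called positive and 13 negative, 25.9% in all, close to the 24.5% of all tested genes, with a median of -0.05. The largest values belonged to partners of mTORC2. Prr5, the Protor-1 subunit that binds Rictor, had -3.03 ± 0.46 (SE) in the authors' deposited table, adjusted p = 4.29e-09, an 8.14-fold difference. Its paralog Prr5l (Protor-2) had -1.90 ± 0.23 (SE) in the authors' deposited table, adjusted p = 9.2e-14, a 3.73-fold difference. Their means of 115.0 and 227.1 normalized counts correspond to 60.0 and 45.7 per kb. The third gene of the list, Mapkap1, which encodes the essential subunit mSIN1, had -0.02 ± 0.14 (SE) in the authors' deposited table, with an interval of -0.29 to 0.25. The Protor genes thus carry the sign of Stk11. Their intervals (-3.93 to -2.12 for Prr5 and -2.36 to -1.44 for Prr5l) overlap neither that of Mapkap1 nor that of Rictor. The differences between these genes were not tested, since that needs the values of single samples.

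Of the mTORC2 substrates and their targets, 1 of 5 was called, Ndrg1, a target of the kinase SGK1, at -1.08 ± 0.17 (SE) in the authors' deposited table. The list median was -0.13, and the share called was 20%, against 24.5% of all tested genes. Without the length and GC trends Foxo1 (-0.54) was called negative too. An antisense gene shares 6.35% of the exon length of Ndrg1. Of the proteins that assemble or bind mTOR kinases (Deptor, Telo2, Tti1 and Tti2), 0 of 4 were called and 0 passed an unadjusted p below 0.05. The smallest p belonged to Telo2, at 0.29 ± 0.16 (SE) in the authors' deposited table.

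Of the other tested genes around the TSC-Rheb switch (Tbc1d7, Rhebl1 and Ddit4), 1 of 3 was called (33.3%), against 24.5% of all tested genes. Tbc1d7, the third subunit of the TSC complex, had -0.86 ± 0.31 (SE) in the authors' deposited table, adjusted p = 0.0268, against positive values for Tsc1 and Tsc2. With the SEs of the authors' deposited table, it was no longer called once the length and GC trends were removed (-0.75, adjusted p = 0.0603) or with p-values adjusted over all genes (0.0694). Among 15 PI3K and Akt genes, 2 were called positive and 1 negative, 20% in all, with a median of -0.04. Without the length and GC trends the calls were 2 positive and 4 negative, with Pik3ca (-0.59), Pik3cd (-0.35) and Akt2 (-0.34) added on the negative side. The regulatory subunit gene Pik3r1 had 0.69 ± 0.17 (SE) and Inpp5d, which encodes the lipid phosphatase SHIP1, 0.56 ± 0.11 in the authors' deposited table. Akt1, a kinase activated by mTORC2 and PDK1, had -0.73 ± 0.18 (SE) in the authors' deposited table, adjusted p = 0.000629642.

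Over all tested genes, 24.5% were called, 11% positive and 13.5% negative. In the lysosomal amino acid branch, 0 Rag GTPase or Ragulator genes were called positive and 2 of 9 negative (22.2%), with a median of -0.18. These were Rragc (-0.41 ± 0.14) and Lamtor5 (-0.38 ± 0.14) in the authors' deposited table (both SE). Without the length and GC trends and with the SEs of the authors' deposited table, both lost the call, at adjusted p = 0.180 and 0.934, while Rraga was called positive (0.31, adjusted p = 0.0489), so that the list held 1 positive and 0 negative calls. Of 4 regulators of the Rag GTPases, 2 were called (50%), both positive, with a median of 0.39, and the difference from the share over all genes was not tested. Fnip1, a folliculin partner, had 0.86 ± 0.23 (SE) in the authors' deposited table, adjusted p = 0.00200424. Slc38a9, the lysosomal arginine sensor, had 0.52 ± 0.19 (SE) in the authors' deposited table and lost its call without the trends (adjusted p = 0.261). The GATOR1 and KICSTOR genes, negative regulators of the Rag GTPases, had 0 of 6 calls and 2 genes at an unadjusted p below 0.05, both positive. The smallest p among them was that of Nprl3, 0.34 ± 0.16 (SE) in the authors' deposited table. Sec13, a GATOR2 subunit that also serves vesicle coats and nuclear pores, was the 1 called gene of 5 (20%). Its value was -0.40 ± 0.13 (SE) in the authors' deposited table. The arginine sensor Castor1, listed under the older symbol Gatsl3, was the 1 called of 5 amino acid sensors (20%). It stood at -0.41 ± 0.14 (SE) in the authors' deposited table. With the SEs of the authors' deposited table, neither Sec13 (adjusted p = 0.101) nor Castor1 (0.289) was called without the trends.

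Downstream, the translation branch of S6 kinase and 4E-BP held 1 positive and 4 negative calls among 10 tested genes, with a median of -0.17. This is 50% of the list, against 24.5% of all tested genes and 33.2% of those within the mean range of the 10 mTOR complex genes. Some genes of this list, such as Rps6 (mean 11760) and Eif4a1 (7583), lie above that range. No share matched to the means of this list was computed, and the difference was not tested. Without the length and GC trends the calls were 1 positive and 3 negative. Larp1, at -0.62 ± 0.18 (SE) in the authors' deposited table, was among the negative ones and kept its call in that setting. Pdcd4, a translation inhibitor that S6 kinase marks for degradation, was positive at 0.73 ± 0.15 (SE) in the authors' deposited table. The cap-binding protein gene Eif4e, whose product 4E-BP1 holds, had -0.70 ± 0.17 (SE) in the authors' deposited table, adjusted p = 0.000707472. The helicase gene Eif4a1, on which Pdcd4 acts, had -0.65 ± 0.16 (SE), and the ribosomal protein gene Rps6, the name-giving S6 kinase substrate, -0.46 ± 0.13 in the authors' deposited table. Without the trends and with its SE in the authors' deposited table, Rps6 was not called (adjusted p = 0.0949). Eif4a1 hosts 2 small nucleolar RNAs within its annotated exons, and Rps6 has processed copies in the genome that can share its reads, so that its value is uncertain. Eif4ebp1, whose product binds that of Eif4e, was not called, and the difference between the 2 genes was not tested.

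Of 12 other substrates and outputs of mTORC1, 3 were called, all positive, with a median of 0.05. This is 25% of the list, close to the 24.5% of all tested genes. Tfeb, the lysosomal master regulator that mTORC1 keeps in the cytoplasm, had 0.67 ± 0.18 (SE) in the authors' deposited table. Lpin1, the phosphatidate phosphatase lipin-1, had 0.73 ± 0.17 (SE) and the hypoxia factor Hif1a 0.53 ± 0.15 in the authors' deposited table. An antisense gene that shares 5.6% of the exon length of Hif1a was called with the same sign, at 1.16 ± 0.29 (SE) in the authors' deposited table. All 3 kept their call without the trends on length and GC content. With the SEs of the authors' deposited table, the autophagy kinase gene Ulk1 was then called as well, on the negative side (-0.56, adjusted p = 0.0314).

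**Figure D4:**
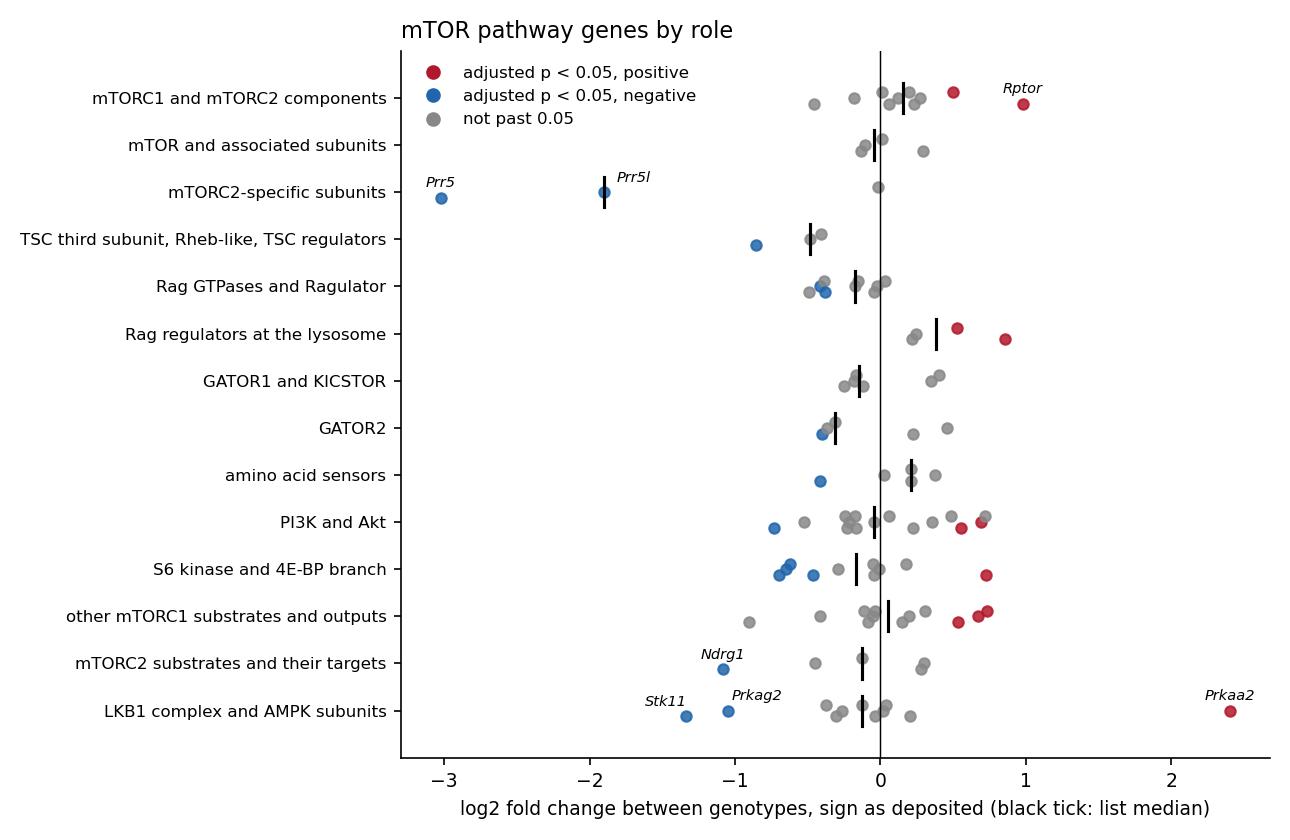
Points give the deposited log2 fold change of each tested gene by role, coloured where called, with a black tick at each list's median. Prr5 (-3.03) and Prr5l (-1.90) lie far to the left and Rptor (0.98) is the highest of the mTOR complex genes.

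The kinases that link LKB1 to mTORC1 were measured in the same comparison. Of 11 tested LKB1 complex and AMPK genes, 1 was called positive and 2 negative, the floxed gene Stk11 included. This is 27.3%, close to the 24.5% of all tested genes. Beside Stk11, the called genes were the AMPK subunit genes Prkaa2 (2.41 ± 0.34) and Prkag2 (-1.05 ± 0.18) in the authors' deposited table (both SE). Their means were 84.2 and 384.0 normalized counts. Prkaa2 had a low level, 10.6 counts per kb, against 241.4 for Prkaa1, the other gene of the AMPK catalytic subunit. Prkaa1 was not called at 0.20 ± 0.15 (SE) in the authors' deposited table, adjusted p = 0.366.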

How the data were processed

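RNA was sequenced from sorted lung ILC2s in 6 samples, 3 WT and 3 KO. Per the labels' protocols, SMART-Seq HT cDNA went into TruePrep V2 libraries. The submitters' processing notes name HISAT2, Cufflinks and mm10. No counter, annotation, filter or strand setting is given in the sources used here.

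Per the file headers, the authors deposited per gene the mean normalized count, a signal that averages the libraries. They also deposited a log2 fold change and its standard error (SE), and the score that is their ratio (to within 2.4e-07). The deposited p-value is the 2-sided normal one of that score (to within 5.0e-08). An adjusted p is given for 14961 genes, the lowest mean among them being 10.46. Another 24483 genes have a p-value and no adjusted p. Some genes have neither, such as Scgb1a1 with a mean of 3644. No source used here says which libraries were fitted. Another 12 columns, with values by sample under 6 names, matched no label and were not used. The planned count test, replicate block and leaving out of replicates were therefore not run, and the authors' comparison took their place.

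Intervals are normal 95% ones. Exon lengths came from GENCODE M21 (mm10; 99.3% of identifiers found) and GC content from each gene's longest transcript. Lowess trends (fraction 0.3) on log2 length, then GC, were removed over 13036 tested protein-coding genes. Steps were tested on simulated data. Tools were Python 3.11.15 with numpy 2.4.6, pandas 2.3.3, statsmodels 0.14.6, scipy 1.17.1 and matplotlib 3.10.9.

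The members, the 13 pathway lists (95 genes, all with a row) and the tests were chosen with earlier results of these data known. Named genes are the members, Stk11, and in each list up to 4 called genes with the smallest p, or the smallest p where none was called. Further genes (overlapping neighbours, markers, uncalled list members and the called Larp1) were named after their values were seen.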

Additional observations from a re-analysis of the deposited data

How the results depend on the processing

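The number of mTOR complex genes called was 2 at adjusted p thresholds of 0.05, 0.01 and 0.1, with p-values adjusted over all genes with a p-value, and with fold changes recentred on the most abundant 25% of genes (median -0.04). With the length and GC trends removed it was 1, with 1 positive and 0 negative, since Tsc2 was not called. That step also turned the sign of 3 uncalled genes, Rictor to -0.094, Rps6kb1 to -0.057 and Eif4ebp1 to 0.040; the cause was not tested. The 13 negative pathway genes outside the LKB1 list were 8 at an adjusted p below 0.01 and 9 to 17 in the other settings. The 8 positive ones numbered 7 to 11 over these settings. Among the called genes, 6 lost the call at 0.01, 5 with adjustment over all genes, 1 with recentring and 8 without the trends. Calls were gained by 7 genes at 0.1, 2 with recentring and 6 without the trends (Akt2, Foxo1, Pik3ca, Pik3cd, Rraga and Ulk1), and Rptor, Prr5 and Prr5l kept theirs in every setting. No paired analysis was possible because the columns of single samples matched no label, and for the same reason no replicate could be left out. The depth of single samples is unknown, so the precision of each value is its deposited standard error.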
